A study of Arabidopsis thaliana with 6 samples.

Results

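The WRKY transcription factors were followed as a family in *Arabidopsis* seedlings that overexpressed the rice bHLH gene *OsbHLH068*. The members were 60 listed loci, and a probe belonged to the family when its annotated transcript mapped to one of these loci. Of the 60 genes, 58 had at least 1 probe, giving 83 of the 43603 probes on the array and 58 of the 25433 genes that could be matched. No probe was matched to *WRKY4* or *WRKY61*. Probes were assigned by annotation and not by their signal, but the family was chosen with earlier results of these data known.

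Aerial tissue of 17-day-old seedlings was hybridized on 1-color Agilent *Arabidopsis* V4 oligo microarrays. The first group held 3 arrays of *OsbHLH068*-overexpressing transformants, labeled OsbHLH068OE, from transgenic line (9), in which the constitutive CaMV35S promoter drives the rice gene in the Columbia-0 background. The other group held 3 arrays of Col-0, the untransformed ecotype. Both groups had the same age and tissue, and the comparison asks which transcripts differ when *OsbHLH068* is overexpressed. The paper reports that this line flowered later than Col-0, so the groups may differ in developmental stage at this age. Such a difference cannot be told apart from the transgene here. A single transgenic line was hybridized, so the transgene and that line cannot be told apart, and no probe of the rice transgene was used here to check it. The replicates are described as biological repeats without saying whether they were grown apart, and the methods mention pooling of labeled cRNA without naming what was combined, so P values measure the spread between these arrays.

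WRKY factors are plant transcription factors named for a short conserved peptide in their DNA-binding domain, which also holds a zinc finger and contacts the W-box in promoters. Group I members carry a pair of WRKY domains, group II members carry one and fall into subgroups IIa to IIe, and group III members carry one with a different zinc finger. Many are immediate targets of immune and stress signaling, act downstream of MAP kinases, and bind the promoters of each other, and several control leaf senescence or phosphate supply. The 58 genes with probes comprised 12 of group I, 38 of group II and 8 of group III.

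The probes of the 4 genes called below are shown first, because each of their signals comes from hybridization to a single 60-base sequence. A probe of *WRKY75*, the gene with the lowest fold change, is added, although that gene was not called with all arrays and its values by array come from another probe. They are written 5′ to 3′ as the study's probe list gives them, with no bases marked.

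*WRKY26*: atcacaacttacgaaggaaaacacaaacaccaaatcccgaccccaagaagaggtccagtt
*WRKY33*: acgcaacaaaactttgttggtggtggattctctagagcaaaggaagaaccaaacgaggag
*WRKY46*, first probe: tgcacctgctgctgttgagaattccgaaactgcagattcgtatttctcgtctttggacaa
*WRKY46*, second probe: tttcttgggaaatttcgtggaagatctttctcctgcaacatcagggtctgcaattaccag
*WRKY48*: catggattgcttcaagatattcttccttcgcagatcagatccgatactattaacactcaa
*WRKY75*, second probe: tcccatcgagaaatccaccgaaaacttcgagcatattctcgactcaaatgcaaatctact

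*WRKY33* and *WRKY46* lie on chromosome 2, and *WRKY26*, *WRKY48* and *WRKY75* on chromosome 5. The GC content of the 6 probes lay between 38.3% and 45.0%. The longest run of bases that any of them shared with another of the 6 was 7 bases, so these probes read different stretches of sequence although the genes belong to one family.

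Signals are on the log2 scale of the deposited values, and differences are given as *OsbHLH068*-overexpressing transformants minus Col-0. A probe was called differentially expressed (DEP) where limma gave an unadjusted P under 0.05 and the groups differed by more than 1 on the log2 scale, and the Benjamini-Hochberg adjusted P was taken over all 43603 probes. With 3 arrays against 3, an exact permutation test of a single value cannot give a two-sided p below 0.1, so only limma, which pools the spread over probes, was used for calls. A gene with several probes is represented by the probe with the highest mean signal.

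The arrays were of similar brightness, with a median spot signal between 284 and 322 intensity units in the transformants and between 311 and 356 in Col-0, and 70.9% to 74.0% of spots were well above background. The arrays shared 2 slides, of which slide 1 carried replicate 1 of either group and slide 2 carried the remaining replicates. The Col-0 array of slide 1 stood apart from the other Col-0 arrays for this family. It lay more than 1 log2 unit below the mean of Col-0 replicates 2 and 3 at 19 of the 83 WRKY probes, or 22.9%, against 2.34% of all probes, and the corresponding gap in the transformants occurred at 1 WRKY probe, or 1.2% against 1.13% of all probes. The cause was not tested. The counts of calls, and the values of genes that were more than 1 lower on this array or changed their call without it, are therefore also given without it. The leaf markers *LHCB1.1*, *RBCS1A*, *LHCA1*, *PSAD1* and *PSBO1* were above background on every array, with a summed log2 signal of 20.1 to 20.2 in the transformants and 20.2 in Col-0. Of 7 root markers, 4 were above background on no array, and the summed log2 signal of the 7 was 7.56 to 7.62 in the transformants and 7.45 to 7.61 in Col-0. Floral organ genes were also present, with all 5 above background on every array at a summed log2 signal of 12.1 to 12.7 in the transformants and 12.5 to 13.03 in Col-0.

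The calls in the family all ran one way. *WRKY26*, *WRKY33*, *WRKY46* and *WRKY48* were DEPs with lower signal, and no WRKY gene was a DEP with higher signal. These 4 genes accounted for 5 probes, or 6.02% of the 83 WRKY probes, against 0.789% of all probes that were DEPs with lower signal and 0.378% with higher signal (1.17% in either direction). Only 1 WRKY probe, that of *WRKY48*, had an adjusted P under 0.05 by limma, or 1.2% against 0.527% of all probes.

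Without a fold threshold, the share of WRKY probes past the unadjusted P was near that of the whole array and its split by direction was not. An unadjusted P under 0.05 was reached by 19 WRKY probes, or 22.9% against 19.8% of all probes. Of these, 14 were lower in the transformants, or 16.9% against 8.89% of all probes, and 5 were higher, or 6.02% against 10.9%. The groups did not overlap with lower values in the transformants at 13 probes, or 15.7% against 12.3% of all probes, and with higher values at 10 probes, or 12% against 14.7%. In either direction this made 23 WRKY probes, or 27.7% against 27% of all probes. The fold change was negative for 39 of the 58 genes and positive for 19, with a median of −0.19 against 0.02 over all probes. Under the other background corrections and scalings run, all with both slides, 36 to 39 genes were negative and the median lay between −0.25 and −0.14. The family median was not lower on slide 1. It was 0.02 within slide 1, against 0.004 over all probes, and −0.18 within slide 2, against 0.03.

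**Figure D1:**
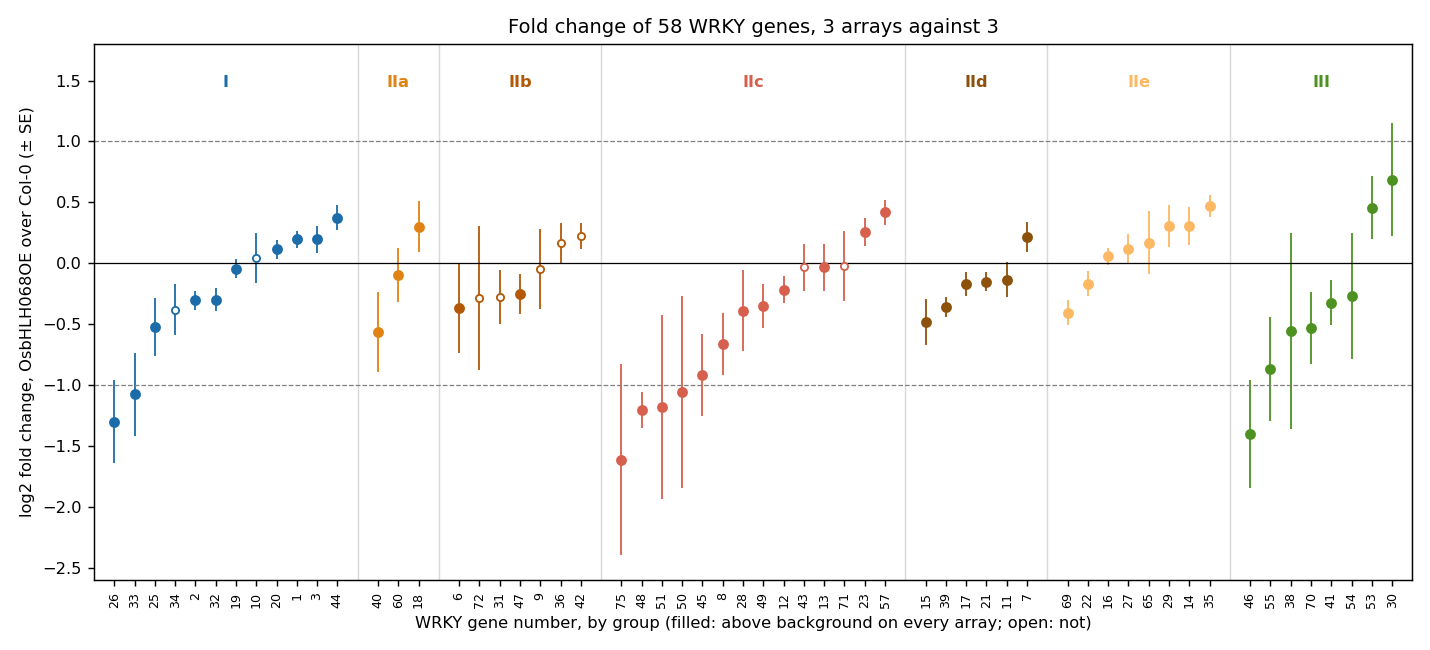
Log2-fold change of each of 58 WRKY genes, *OsbHLH068*-overexpressing transformants over Col-0, with its limma standard error, grouped by WRKY group on the horizontal axis and with dashed lines at 1 and −1. Genes in groups I, IIc and III reach below −1, no gene reaches 1, and the longest error bars belong to *WRKY38*, *WRKY50*, *WRKY51* and *WRKY75*.

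DEPs were found in each of the 3 structural groups. Group I had 2 genes called DEPs of 12, group II had 1 of 38 and group III had 1 of 8. The median log2-fold change was −0.17 in group I, with a range of −1.30 to 0.37, −0.16 in group II, with a range of −1.61 to 0.47, and −0.43 in group III, with a range of −1.40 to 0.69. Negative values were held by 7 genes of group I, 26 of group II and 6 of group III. These medians describe genes that share arrays, so no test of the difference between groups was made.

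Group III had medians of opposite sign on the 2 slides, as did subgroups IIa and IIb. The group III median difference was 0.28 within slide 1 and −0.66 within slide 2. It was −0.85 without Col-0 replicate 1 and −0.08 without Col-0 replicate 2. The same within-slide medians were −0.05 and −0.19 for group I and −0.05 and −0.11 for group II. Within group II they were 0.07 and −0.18 for subgroup IIa and 0.15 and −0.15 for subgroup IIb. Over the whole family, 24 genes were lower in the transformants on both slides, 17 were higher on both and 17 had opposite signs.

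Among the group I factors, *WRKY26* (AT5G07100) had the lowest fold change. *WRKY26* acts with *WRKY25* and *WRKY33* in heat tolerance. Its signal was 9.01, 9.53 and 9.60 in the transformants, against 9.96, 11.06 and 11.03 in Col-0. All transformant values lay below all Col-0 values, and replicate 1 was the lowest array of each group. The mean was 9.38 ± 0.325 in the transformants and 10.68 ± 0.629 in Col-0 (SD, n = 3 each), a log2-fold change of −1.30 ± 0.340 (SE) or a 2.47-fold lower signal, with an adjusted P of 0.137 by limma. The difference was −0.95 on slide 1 and −1.48 on slide 2, and the adjusted P was 0.0414 with the slide as a block. Without Col-0 replicate 1 the fold change was −1.67 with an adjusted P of 0.0393.

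*WRKY33* (AT2G38470), a factor required for camalexin synthesis and resistance to necrotrophic fungi and a substrate of MPK3 and MPK6, gave 9.85, 10.52 and 11.10 in the transformants. In Col-0 it gave 11.21, 11.61 and 11.88. The groups did not overlap, but the highest transformant array came close to the lowest Col-0 array. Its log2-fold change was −1.08 ± 0.341 (SE), 2.11-fold lower, with an adjusted P of 0.181 by limma, and its differences were −1.36 on slide 1 and −0.93 on slide 2. It was no longer a DEP without transformant replicate 1 (−0.76), without Col-0 replicate 2 (−1.06) or without Col-0 replicate 3 (−0.92).

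*WRKY25*, the partner of both in heat tolerance, had 11.02, 10.99 and 10.90 in the transformants, against 10.97, 11.90 and 11.62 in Col-0. The transformant arrays stayed close to each other, Col-0 replicate 1 lay among them, and Col-0 replicates 2 and 3 lay above them. Its log2-fold change was −0.52 (adjusted P = 0.286 by limma), made of 0.05 on slide 1 and −0.81 on slide 2, and it was −0.79 with an adjusted P of 0.0420 without Col-0 replicate 1.

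At the other end of group I stood *WRKY44* (AT2G37260), known as *TTG2*, which acts in trichome and seed coat development. Its signal was 7.66, 7.78 and 7.46 in the transformants, against 7.32, 7.19 and 7.26 in Col-0, so the groups did not overlap. The log2-fold change was 0.37 ± 0.105 (SE), with an adjusted P of 0.153 by limma, inside the fold threshold, and the difference was 0.34 and 0.39 on the 2 slides.

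None of the remaining group I genes was a DEP. *WRKY2*, which acts in zygote and pollen development, and *WRKY32* had log2-fold changes of −0.30 each with no overlap between groups, but adjusted P values of 0.129 and 0.176 by limma. *WRKY1* and *WRKY3* both had 0.20, *WRKY20* had 0.12, and *WRKY19*, whose protein also carries parts of an immune receptor and a kinase, had −0.04. *WRKY1* and *WRKY20* also had no overlap between groups, with higher values in the transformants. *WRKY10*, known as *MINI3* and active in the seed endosperm, was not well above background on any array. *WRKY34*, a pollen factor, was well above background on only 1 array, of Col-0, and had −0.38 with an adjusted P of 0.358 by limma.

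**Figure D2:**
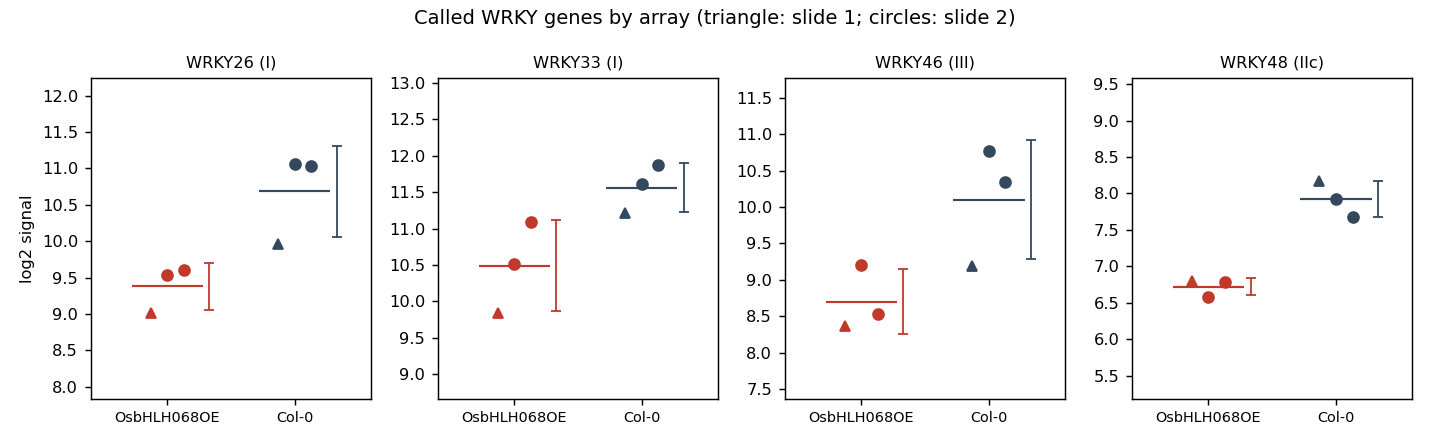
Log2 signal of *WRKY26*, *WRKY33*, *WRKY46* and *WRKY48* on each array, with transformants at left and Col-0 at right in each panel, triangles for slide 1 and circles for slide 2, a horizontal line at the group mean and a bar of 1 SD beside it (n = 3). The transformants lie below Col-0 without overlap in all panels except that of *WRKY46*, where 1 transformant array at 9.20 passes Col-0 replicate 1 at 9.19.

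In group II, the DEP and the widest spreads between Col-0 arrays were both in subgroup IIc. *WRKY48* (AT5G49520), a pathogen-induced activator that lowers basal resistance to bacteria, had signals of 6.79, 6.58 and 6.78 in the transformants. In Col-0 it had 8.18, 7.92 and 7.68. The transformant arrays were all below the lowest Col-0 array, and Col-0 replicate 1 was the highest Col-0 array here, not the lowest. The mean was 6.72 ± 0.117 in the transformants and 7.93 ± 0.248 in Col-0 (SD, n = 3 each), a log2-fold change of −1.21 ± 0.146 (SE) or 2.31-fold lower, with an adjusted P of 0.0457 by limma. Slide 1 gave −1.38 and slide 2 gave −1.12. It stayed a DEP without any 1 array, while the adjusted P was 0.0383 without Col-0 replicate 1 and between 0.0959 and 0.230 without any other array. In those other fits only 1 to 19 of all probes had an adjusted P under 0.05. An offset of 50 before taking logarithms brought the fold change to −0.92, inside the fold threshold.

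*WRKY75* (AT5G13080), which regulates phosphate starvation responses and leaf senescence, had the lowest fold change of the family and was not a DEP. Its brighter probe gave 5.35, 5.87 and 5.85 in the transformants, against 5.50, 8.71 and 7.69 in Col-0. Col-0 replicate 1 lay among the transformant values, while the other Col-0 arrays were far above them. The log2-fold change was −1.61 ± 0.786 (SE), with an adjusted P of 0.314 by limma, and the difference was −0.16 on slide 1 and −2.34 on slide 2. Without Col-0 replicate 1 it was −2.51 with an adjusted P of 0.0411, and with the slide as a block it was a DEP with an adjusted P of 0.148. The second probe, whose sequence is printed above, had −1.52 and an adjusted P of 0.258.

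The same arrangement of arrays was seen in *WRKY50* and *WRKY51*, which repress jasmonate signaling when salicylic acid is high, and in *WRKY45*, which acts in phosphate uptake. *WRKY50* had 7.49, 7.59 and 6.78 in the transformants, against 6.53, 9.60 and 8.89 in Col-0, a difference of 0.96 on slide 1 and of −2.06 on slide 2. *WRKY51* had 5.20, 6.67 and 6.28 in the transformants, against 5.68, 8.41 and 7.61 in Col-0, a difference of −0.48 on slide 1 and −1.53 on slide 2. *WRKY45* had 8.64, 9.04 and 9.48 in the transformants, against 9.34, 10.42 and 10.16 in Col-0, and was lower by 0.70 on slide 1 and by 1.03 on slide 2. The adjusted P values of these genes with all arrays were 0.490, 0.423 and 0.221 by limma, and none was a DEP. Without Col-0 replicate 1 the fold changes were −1.96 in *WRKY50* (adjusted P = 0.0476), −1.96 in *WRKY51* (0.0808) and −1.24 in *WRKY45* (0.0604). In *WRKY50* the transformants were above Col-0 on one slide and below it on the other, whereas *WRKY45* and *WRKY51* kept one sign.

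The rest of subgroup IIc ran from −0.66 in *WRKY8* (adjusted P = 0.237 by limma, and −0.93 with 0.0494 without Col-0 replicate 1), a salt and virus response factor, to 0.42 in *WRKY57*, which promotes drought tolerance. *WRKY57* had 8.79, 8.75 and 8.83 in the transformants, against 8.21, 8.53 and 8.37 in Col-0. The groups did not overlap at either of its probes, whose fold changes were 0.42 and 0.41 with adjusted P values of 0.125 and 0.165. *WRKY28*, an activator of the salicylic acid synthesis gene *ICS1*, had 0.54 on slide 1 and −0.85 on slide 2, and its pooled value of −0.39 was −0.77 with an adjusted P of 0.0453 without Col-0 replicate 1. *WRKY12* and *WRKY13*, which act in pith cell walls and flowering time, had −0.22 and −0.03, and *WRKY23*, an auxin-responsive factor, had 0.25. Subgroup IIc as a whole had 12 negative and 2 positive genes and a median of −0.37, with −0.40 within slide 1 and −0.56 within slide 2.

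Subgroup IIa holds *WRKY18*, *WRKY40* and *WRKY60*, partly redundant repressors of basal defense that form complexes with each other. None was a DEP, and their values had different signs. *WRKY40* had 10.04, 10.28 and 10.65 in the transformants, against 10.18, 11.25 and 11.24 in Col-0, which gave a log2-fold change of −0.57 (adjusted P = 0.385 by limma), and its second probe gave −0.59. Without Col-0 replicate 1 the brighter probe had −0.92 with an adjusted P of 0.0585. *WRKY18* had 13.33, 12.90 and 12.56 in the transformants, against 12.49, 12.82 and 12.58 in Col-0, which gave a log2-fold change of 0.30 (adjusted P = 0.460), with 0.83 on slide 1 and 0.03 on slide 2. *WRKY60* had −0.10.

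Subgroup IIb was mostly dim in this tissue. Only *WRKY6*, a regulator of phosphate export and senescence, and *WRKY47* of its 7 genes were well above background on every array, with log2-fold changes of −0.37 and −0.26. *WRKY6* was higher in the transformants on slide 1 (0.33) and lower on slide 2 (−0.72), and without Col-0 replicate 1 it had −0.80 with an adjusted P of 0.0411. The second probe of *WRKY47* had −0.30 with an adjusted P of 0.260, and −0.43 with 0.0485 without that array. *WRKY9* and *WRKY31* were not well above background on any array, and the 2 probes of *WRKY72* had opposite signs, −0.28 and 0.34, at signals near background.

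Subgroups IId and IIe had small differences and closely spaced replicates, with a median SD of 0.102 and 0.119 in the transformants and of 0.106 and 0.158 in Col-0. The calmodulin-binding IId factors had a median of −0.16, and 5 of 6 were negative on both slides. *WRKY15*, a regulator of growth under osmotic stress, had the lowest value at −0.48, and its 3 probes lay between −0.57 and −0.48 with adjusted P values from 0.242 to 0.273 by limma. Without Col-0 replicate 1 the brightest probe had −0.68 with an adjusted P of 0.0456. *WRKY39*, a heat response factor, had 11.20, 11.25 and 11.12 in the transformants, against 11.50, 11.65 and 11.50 in Col-0. Its groups did not overlap at either probe, with fold changes of −0.36 and −0.41 and adjusted P values of 0.119 and 0.102, the second being 0.0412 without Col-0 replicate 1. *WRKY11* and *WRKY17*, negative regulators of basal resistance, had −0.13 and −0.17.

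Subgroup IIe was the only one with a positive median, 0.14, which stayed between 0.10 and 0.18 under the background corrections and scalings run, and 6 of its 8 genes were positive on both slides. *WRKY35* had the highest value of group II, with 7.51, 7.39 and 7.36 in the transformants, against 7.04, 6.95 and 6.86 in Col-0. Every transformant array exceeded every Col-0 array, and the log2-fold change was 0.47 ± 0.0872 (SE), or 1.38-fold higher, with an adjusted P of 0.0888 by limma. It was the same on both slides (0.47), and the adjusted P was 0.0481 with the slide as a block and 0.0454 without Col-0 replicate 1. Its second probe was dim and gave 0.12. *WRKY22* and *WRKY29*, which act downstream of the flagellin receptor, had −0.17 and 0.30, and *WRKY69* had −0.41 with no overlap and an adjusted P of 0.134. *WRKY16*, which like *WRKY19* encodes a receptor fused to a WRKY domain, lay within 0.06 of 0 at all 4 probes.

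Group III contains the salicylic acid and senescence regulators, and all 8 genes were above background on every array. Within Col-0 these genes were widely spread. Replicate 1 was the lowest Col-0 array for all 8, it lay below the mean of the other Col-0 arrays by a median of 1.44, and 5 of the 8 were more than 1 lower there. In the transformants replicate 1 was lower than the mean of the other arrays by a median of 0.38. The median SD of group III genes was 0.348 in the transformants and 0.847 in Col-0.

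**Figure D3:**
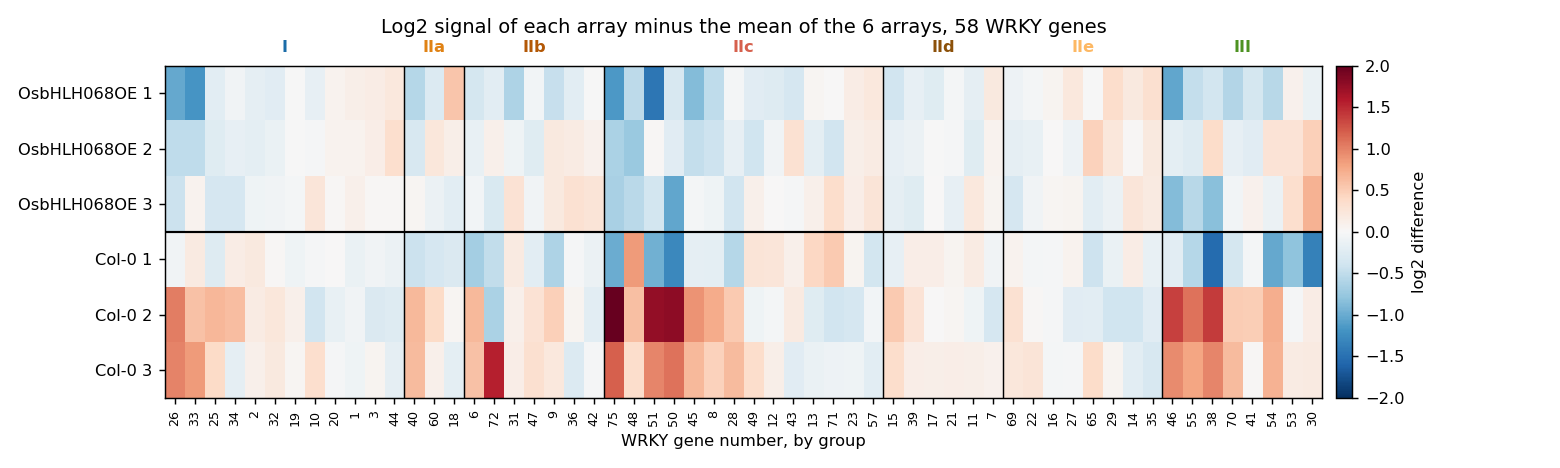
Log2 signal of each array minus the mean over the 6 arrays for 58 WRKY genes, with transformant arrays in the upper rows, Col-0 arrays in the lower rows and genes ordered by group and fold change. In group III the Col-0 arrays of replicates 2 and 3 lie above the mean by a median of 0.62 and 0.67, and Col-0 replicate 1 has a median of −0.69.

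*WRKY46* (AT2G46400), which together with *WRKY54* and *WRKY70* acts in brassinosteroid-regulated growth and drought responses, was the only DEP of the group. Its brighter probe gave 8.36, 9.20 and 8.53 in the transformants, against 9.19, 10.77 and 10.35 in Col-0. The groups overlapped, because the highest transformant array lay just above Col-0 replicate 1. The brighter probe had a log2-fold change of −1.40 ± 0.444 (SE), 2.64-fold lower, with an adjusted P of 0.180 by limma, and the second probe gave −1.35 with an adjusted P of 0.188. The difference was −0.82 on slide 1 and −1.69 on slide 2, and −1.86 with an adjusted P of 0.0448 without Col-0 replicate 1. Both probes lost the call when Col-0 replicate 2 or 3 or transformant replicate 1 or 3 was left out, with fold changes of the brighter probe between −1.32 and −1.07.

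Its partners did not reach the thresholds. *WRKY70*, an activator of salicylic acid responses, had 13.40, 13.83 and 13.94 in the transformants, against 13.64, 14.51 and 14.63 in Col-0, which gave a log2-fold change of −0.53 (adjusted P = 0.366 by limma). *WRKY54* had 8.96, 9.78 and 9.38 in the transformants, against 8.48, 10.24 and 10.21 in Col-0. Its difference was 0.47 on slide 1 and −0.64 on slide 2, so that the pooled value of −0.27 stood for opposite signs, and it was −0.85 with an adjusted P of 0.102 without Col-0 replicate 1.

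*WRKY30*, a stress tolerance factor, and *WRKY53*, an activator of senescence, were the group III genes with positive values. *WRKY30* had 7.42, 8.03 and 8.24 in the transformants, against 6.20, 7.70 and 7.72 in Col-0. The transformant array was the higher one on each slide, by 1.22 on slide 1 and by 0.42 on slide 2, but the groups overlapped. The log2-fold change was 0.69 ± 0.462 (SE), with an adjusted P of 0.446 by limma and of 0.109 with the slide as a block. This fold change fell to 0.18, with an adjusted P of 0.681 by limma, once Col-0 replicate 1 was left out. *WRKY53* had a log2-fold change of 0.45 (adjusted P = 0.375), made of 0.90 on slide 1 and 0.23 on slide 2.

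*WRKY38*, a repressor of basal defense, and *WRKY55*, which promotes senescence, depended on the slide like *WRKY50*. *WRKY38* had 7.63, 8.36 and 7.17 in the transformants, against 6.46, 9.40 and 8.98 in Col-0, and its difference was 1.18 on slide 1 and −1.42 on slide 2. *WRKY55* had 5.88, 6.11 and 5.80 in the transformants, against 5.79, 7.44 and 7.15 in Col-0, with 0.09 on slide 1 and −1.34 on slide 2. The pooled fold changes of −0.56 and −0.87 were −1.47 in *WRKY38* (adjusted P = 0.0801 by limma) and −1.37 in *WRKY55* (0.0383) without Col-0 replicate 1. In both genes Col-0 replicate 1 lay below every transformant array and the other Col-0 arrays lay above every one. *WRKY41* had −0.32, nearly the same on both slides.

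**Figure D4:**
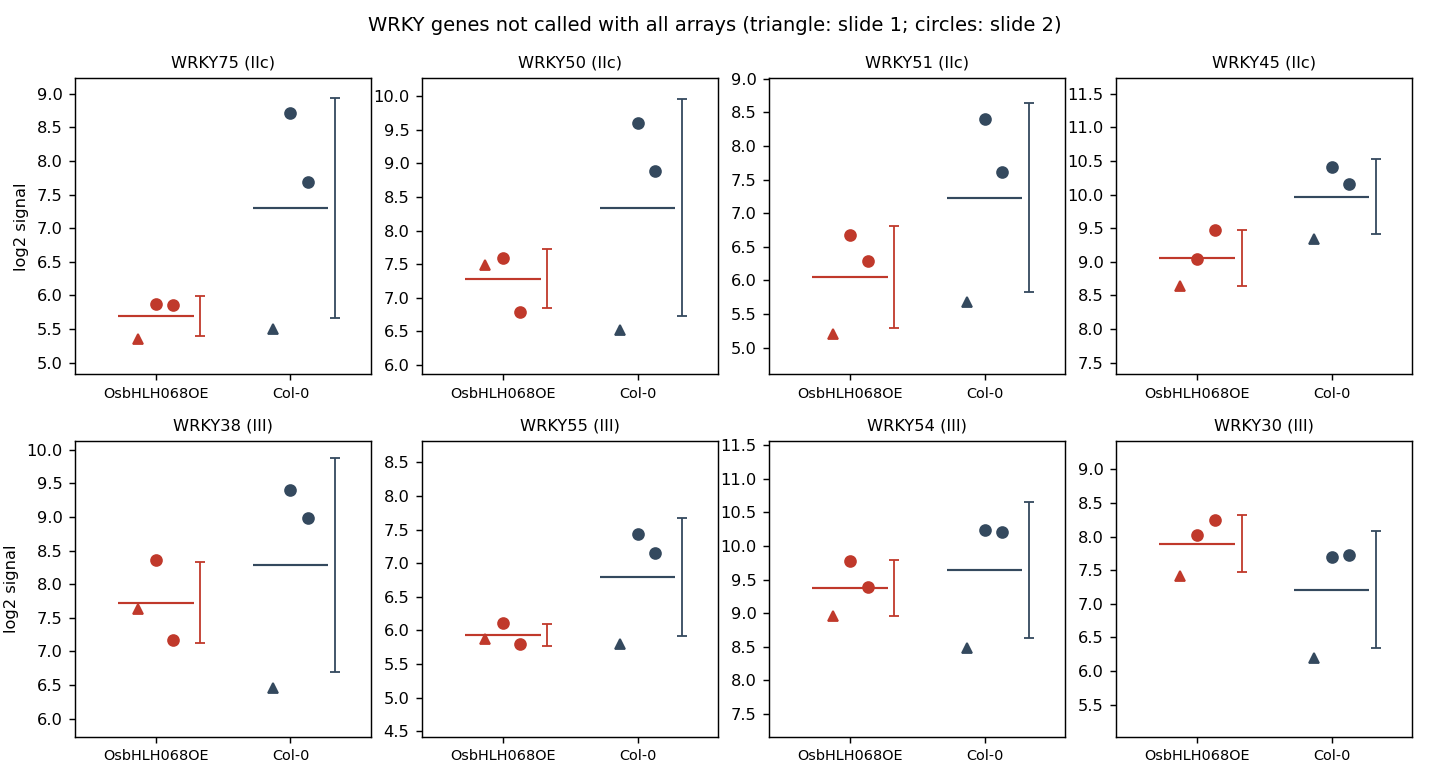
Log2 signal of 8 genes of subgroup IIc and group III that were not DEPs with all arrays, drawn as triangles for slide 1 and circles for slide 2, transformants at left and Col-0 at right, with the mean and 1 SD (n = 3). The Col-0 triangle is the lowest Col-0 value in every panel, and in *WRKY30*, *WRKY38*, *WRKY50*, *WRKY54* and *WRKY55* it is also below every transformant array.

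The number of WRKY genes called changed with the Col-0 array of slide 1. That array was singled out for its low values at WRKY probes. Leaving it out was therefore bound to make the fold changes of those probes more negative. The counts without it are not independent evidence of direction, and the fit within slide 2 lacks the same array. Without Col-0 replicate 1, 14 WRKY probes of 10 genes were DEPs with lower signal, or 16.9% against 1.86% of all probes. None was a DEP with higher signal, against 0.571% of all probes. The added genes were *WRKY45*, *WRKY50*, *WRKY51* and *WRKY75* of subgroup IIc and *WRKY38* and *WRKY55* of group III. An adjusted P under 0.05 was then reached by 19 WRKY probes, or 22.9% against 6.16% of all probes. Of the 10 genes, *WRKY38*, *WRKY50* and *WRKY55* were not lower in the transformants on slide 1. Within slide 2 alone, with 2 arrays a group, 13 WRKY probes of 9 genes were DEPs with lower signal, or 15.7% against 1.63% of all probes, and none was one with higher signal, against 0.493%. No WRKY probe then had an adjusted P under 0.05 by limma, against 0.00229% of all probes.

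With all arrays and the slide as a block, 8 WRKY probes of 6 genes were DEPs with lower signal, or 9.64% against 0.959% of all probes. None was a DEP with higher signal, against 0.392% of all probes. *WRKY51* and *WRKY75* were the additions. An adjusted P under 0.05 was then held by *WRKY26* and *WRKY48*, lower in the transformants, and by *WRKY35*, higher, which made 3.61% of WRKY probes against 2.33% of all probes.

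**Figure D5:**
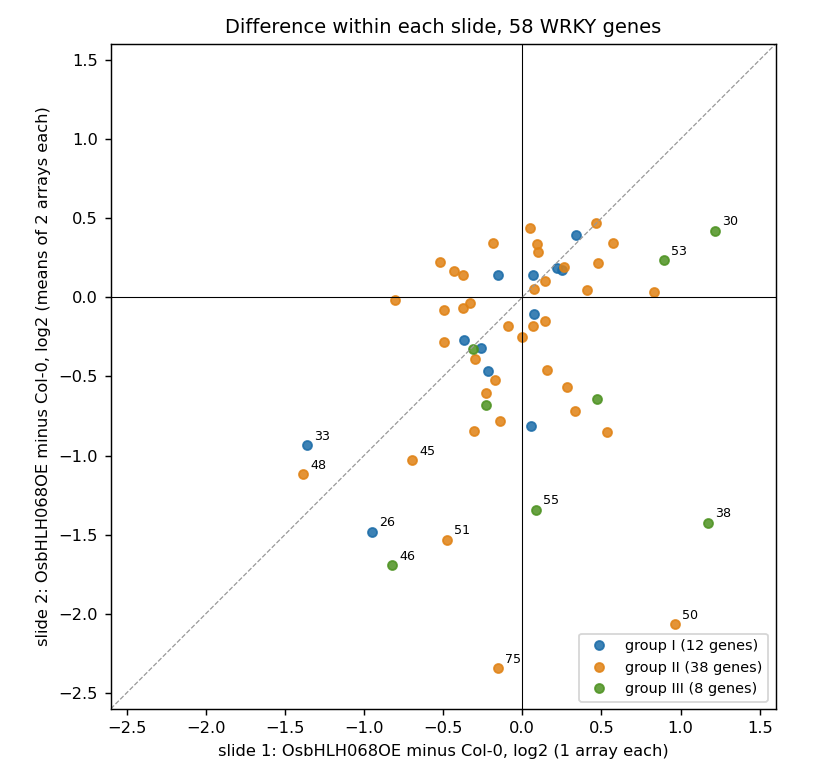
Difference between *OsbHLH068*-overexpressing transformants and Col-0 on slide 1 (horizontal axis, 1 array each) and on slide 2 (vertical axis, means of 2 arrays each) for 58 WRKY genes, in log2 units, colored by group, with a dashed line where both are equal. *WRKY26*, *WRKY33*, *WRKY46* and *WRKY48* are below −0.82 on both slides, whereas *WRKY38* and *WRKY50* are above 0 on slide 1 and below −1.42 on slide 2.

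Genes that work with WRKY factors or under them were read from lists of textbook members. A listed gene counted as a DEP, or as having an adjusted P under 0.05, when any of its probes did. Shares of these lists are thus per gene, whereas shares of the array are per probe, and the units are not alike. Of 13 MAP kinase cascade members and VQ-motif proteins, which signal to WRKY factors or bind them, 0 were DEPs by limma, against 1.17% of all probes. An unadjusted P under 0.05 by limma was reached by 3, or 23.1% of the list against 19.8% of all probes. All 3 were lower in the transformants, as were 8.89% of all probes at that P. In this list 11 were negative and the median was −0.19, against 0.02 over all probes. The kinase gene *MPK3* had 10.75, 11.32 and 11.42 in the transformants, against 11.77, 12.32 and 12.14 in Col-0, which gave a log2-fold change of −0.91 (adjusted P = 0.127 by limma). *MKK4*, which activates MPK3, had 9.68, 9.84 and 9.80 in the transformants, against 10.32, 10.65 and 10.43 in Col-0, which gave a log2-fold change of −0.70 (adjusted P = 0.0685). Both genes had no overlap between groups and kept their sign on both slides. *SIB1*, a VQ protein that binds WRKY33, had −0.999 with an adjusted P of 0.269. Without Col-0 replicate 1, *SIB1* had −1.44 (adjusted P = 0.0542 by limma) and *MPK3* had −1.07 (0.0599), and both were then DEPs.

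Of 17 genes known to be bound or controlled by WRKY factors, 1 (5.88%) was a DEP with lower signal, against 0.789% of all probes, and none was one with higher signal, against 0.378%. An unadjusted P under 0.05 by limma was reached by 3 (17.6% against 19.8% of all probes), 2 of them lower and 1 higher in the transformants, and 13 were negative with a median of −0.60. The DEP was *ACS6*, an ethylene synthesis gene, which had 9.51, 9.80 and 10.50 in the transformants, against 11.60, 11.03 and 11.45 in Col-0. The fold change was −1.42 on the log2 scale (adjusted P = 0.0955 by limma), with −2.09 on slide 1 and −1.09 on slide 2. *PAD3*, the last enzyme of camalexin synthesis and a target of WRKY33, had 7.88, 8.85 and 8.73 in the transformants, against 8.48, 11.40 and 10.07 in Col-0, which gave a log2-fold change of −1.50 with an adjusted P of 0.316. Without Col-0 replicate 1 *PAD3* had −2.25 with an adjusted P of 0.0647 by limma and was a DEP. *PHO1*, repressed by WRKY6, had 0.42 with an adjusted P of 0.176. In this list 7 genes were more than 1 lower on Col-0 replicate 1 than on the other Col-0 arrays, and the median was −0.27 within slide 1 and −0.73 within slide 2.

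Genes known for a fast response to touch or stress had a lower median than the WRKY family. Of 16 with a probe, 8 (50%) were DEPs with lower signal, against 0.789% of all probes, and 4 (25%) had an adjusted P under 0.05 by limma, against 0.527%. The median was −1.15, and the summed log2 signal was 14.5 to 15.02 in the transformants and 16.3 to 16.6 in Col-0. This list was written with the study's table of DEPs known and is not independent evidence of its direction. Unlike group III, none of these genes was more than 1 lower on Col-0 replicate 1, and the median was −1.24 within slide 1 and −1.03 within slide 2. The part of this response in the lower signals of *WRKY26*, *WRKY33*, *WRKY46* and *WRKY48* was not tested.

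Senescence markers varied with the arrays as group III did. *SAG12*, the defining marker, was not well above background on any array. The summed log2 signal of the 4 markers was 14.3 to 15.2 in the transformants and 14.6 to 16.3 in Col-0, with Col-0 replicate 1 at 14.6 and the other Col-0 arrays at 16.2 and 16.3. Their part in the WRKY differences was not tested.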

How the data were processed

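Median spot and background intensity values had been read by the authors with Feature Extraction 10.7.1.1 from 3 arrays of *OsbHLH068*-overexpressing transformants and 3 of Col-0. From those signals the authors had used limma to make the log2 values that they deposited in the series table. Normexp background correction with an offset of 0 and quantile normalization before log2, repeated here, differed from that table by at most 5.0e-09, and these values were used without spots marked as outliers. Precision is limited by the 3 arrays per group. Groups followed the sample labels. All 43603 probes were fitted with limma 3.58.1 (R 4.3.3, lmFit and eBayes), and P values were adjusted by the Benjamini-Hochberg method. DEPs followed the thresholds of the methods. The pipeline was tested on simulated data. Transcripts were matched to loci and symbols in the RefSeq gene table (assembly TAIR10.1), used for names and chromosomes only, since the arrays name another build. WRKY groups follow the standard classification.

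Every WRKY gene could be named, with values in every array for DEPs, genes with an adjusted P under 0.05, *WRKY48*, and the highest and lowest gene of each group. Further genes shown by array were chosen after their values were seen. The members and lists were chosen with earlier results of these data known. Alternatives covered background correction, normalization, dim probes, the eBayes prior, the methods' t-test, blocks for slide or replicate number, thresholds and leaving out each array. The fit within slide 2 and the random slide block were added after the data were seen.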

Additional observations from a re-analysis of the deposited data

How the results depend on the processing

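No fold change of *WRKY26*, *WRKY30*, *WRKY33*, *WRKY35*, *WRKY44*, *WRKY46*, *WRKY48* or *WRKY75* and no group median changed sign under any alternative run. Slide 1 alone was not among these alternatives, and the group III median within it was positive, at 0.28. The number of WRKY probes called DEPs was 5. It was 1 with an adjusted P in place of the unadjusted one, 8 with the slide as a block, 13 within slide 2 alone and 2 by the methods' t-test, and leaving out each array in turn gave 2 to 14, of which 14 belonged to the fit without Col-0 replicate 1 and 2 to those lacking transformant replicate 1 or replicate 2 or 3 of Col-0. Over all probes the methods' t-test called 252 lower and 144 higher, against 344 and 165 by limma with all arrays. The number of WRKY probes with an adjusted P under 0.05 was 1. It was 3 with dim probes left out, 2 with an intensity trend and robust prior, 5 with no background correction, 5 with an offset of 50, 3 with the slide as a block, 2 with the slide as a random block, 0 within slide 2 alone and 0 by the methods' t-test, and 0 to 19 when each array was left out, with 19 without Col-0 replicate 1. Each rise in this number came with a rise over all probes. The whole array had 230 of 43603 probes in the main fit and 1349 of 31272 with dim probes left out. It had 1388 with the trend and robust prior, 1527 with no background correction, 1568 with an offset of 50 and 862 with the random block. It had 1018 with the slide as a block, 1 within slide 2 alone, 0 by the methods' t-test and 2685 without Col-0 replicate 1. Leaving out any other array left 1 to 19 over all probes, so a WRKY count of 0 there was not particular to the family. With the replicate number as a block, 8 WRKY probes were DEPs and 0 had an adjusted P under 0.05. Over all probes that fit called 414 lower and 170 higher, and 1 had an adjusted P under 0.05. The replicate numbers were not used as pairs, because same-numbered arrays correlated at 0.43, 0.24 and 0.07 in their deviations from the group means and transformant replicates 2 and 3 correlated best with another number.

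The median of group I was −0.035 with no background correction and −0.072 with an offset of 50, against −0.17. Group III lay between −0.85 and −0.08 over the fits that each lacked 1 array. *WRKY48* had −0.90 with no background correction and −0.92 with an offset of 50, under the fold threshold. *WRKY33* and *WRKY46* were not called by the methods' t-test, nor *WRKY33* within slide 2 alone (−0.93). *WRKY75* was called with either block, within slide 2 alone (−2.34) and without Col-0 replicate 1 (−2.51). Over all probes 67.6% of DEPs were lower in the transformants, and 53.5% when the processed signal was scaled to its 75th percentile.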

Other observations

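WRKY genes outside the listed 60 gave 13 further probes, found by their symbols after the data were seen. *WRKY74* had 8.79, 8.85 and 8.75 in the transformants, against 8.90, 9.05 and 8.95 in Col-0, which gave a log2-fold change of −0.17 (adjusted P = 0.299 by limma). *WRKY58* and *WRKY62*, both also above background on every array, had −0.47 and −0.01 with adjusted P values of 0.645 and 0.993. *WRKY67* met the DEP thresholds with −1.16 (adjusted P = 0.119) but was not well above background on any array, so its log2 difference was taken between dim signals.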
